A study of Drosophila melanogaster with 23 samples.

Results

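*Myb* and *AlkB* are neighbours on the X chromosome of *Drosophila melanogaster*, and the *Myb* mutation studied here removes sequence from both. The 2 genes were chosen because the allele deletes *AlkB* and the beginning of *Myb*, although earlier results of these data were known when they were chosen. Each was represented by 1 identified transcript (FBtr0074169 for *Myb* and FBtr0074168 for *AlkB*), which makes 2 of the 16637 transcripts whose signal varied across the arrays.

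RNA came from wing imaginal discs, the larval tissue that gives rise to the adult wing and part of the thorax, of male larvae in instar 3. The *Myb* mutant larvae were hemizygous for MH107 on a Df(1)MH107, w1118 chromosome. Per the study's methods, MH107 is a null allele of *Myb* and a product of P element mobilization. Its deletion covers *AlkB*, a gene that flies can do without, and the beginning of *Myb*, and the stock had been outcrossed to the y1 w67c23 laboratory line. Mutant males were recognized by the absence of GFP, because mothers carried the allele over the GFP-marked FM7i balancer. Males of the yw67 stock, with a yellow body and white eyes, served as controls. There were 3 biological replicates of each genotype. A replicate was read on 4 arrays, apart from 1 control replicate that was read on 3, giving 12 mutant and 11 control arrays. Every mutant sample lacked *AlkB* as well as the start of *Myb*, so loss of one gene cannot be told apart from loss of the other in these arrays. The study's methods state that a *Myb* cDNA expressed ubiquitously can rescue the phenotypes observed in *Myb* mutants, lethality among them. No rescued larvae were among these samples. The number of larvae behind a replicate is not given in the sources used here. The p-values weigh the difference between the genotypes against the spread between these samples.

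Myb proteins are DNA-binding transcription factors, and the fly has a single one. It acts within a larger multiprotein complex, known as dREAM or Myb-MuvB, together with E2F2 and the Mip proteins, and it is known for keeping mitotic genes expressed in dividing cells such as those of the growing disc. *AlkB* belongs to a family of iron- and 2-oxoglutarate-dependent dioxygenases. Its founding member, in *Escherichia coli*, repairs alkylated bases in DNA and RNA by removing the alkyl group directly, without cutting the strand.

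*Myb* signal was lower in the mutant on every array but did not approach the bottom of the table. Averaged over the arrays of each biological replicate, *Myb* measured 4586, 4929 and 4717 signal units in the mutant replicates, against 15216, 15119 and 16233 in the control replicates. All 3 mutant values lay close together and far below the control values, and the genotypes did not overlap. Single arrays ran from 4393 to 5209 in the mutant (median 4698) and from 14455 to 17285 in the control (median 15364). The dimmest control array was thus still 2.77 times as bright as the brightest mutant array.

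On the log2 scale the mutant mean of *Myb* was 12.21 ± 0.05 and the control mean 13.92 ± 0.06 (SD, n = 3 each), so that the log2 change was -1.71 (SE 0.06). The call used the threshold of the study's methods, an adjusted p under 0.001 with a signal of at least 500 in a replicate, and limma gave *Myb* an adjusted p of 3.54e-05. When same-numbered replicates were treated as pairs, the change stayed the same, the limma adjusted p was 0.00171 and the call at 0.001 was lost. An exact permutation test over the 6 replicates gave a two-sided p of 0.10, which is the smallest that 3 against 3 replicates allow.

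*AlkB*, the gene that the allele removes, fell much further. It measured 48.3, 50.9 and 46.6 signal units in the mutant replicates, against 608, 758 and 643 in the control replicates. Mutant values were uniformly low, whereas control replicate 2 stood above the other two control replicates. Single arrays ran from 40.9 to 62.5 in the mutant (median 49.2) and from 578 to 806 in the control (median 676). The dimmest control array was 9.25 times as bright as the brightest mutant array, so the genotypes were again separate on every array.

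The log2 mean of *AlkB* was 5.60 ± 0.06 for mutant discs and 9.38 ± 0.16 for control discs (SD, n = 3 each). Its change was therefore -3.78 (SE 0.10, limma adjusted p = 5.88e-06). This call was kept with replicates paired (limma adjusted p = 0.000390). The exact permutation p was 0.10, again the smallest possible. The methods' t-test, run on the same 6 means and adjusted over all transcripts, pools no variance between transcripts, and *Myb* (adjusted p = 0.00135) and *AlkB* (adjusted p = 0.00146) both missed the threshold of 0.001 with it. Control signal was above 500 in all 3 replicates, and *AlkB* therefore passed the signal minimum only through the genotype that carries the gene.

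**Figure D1:**
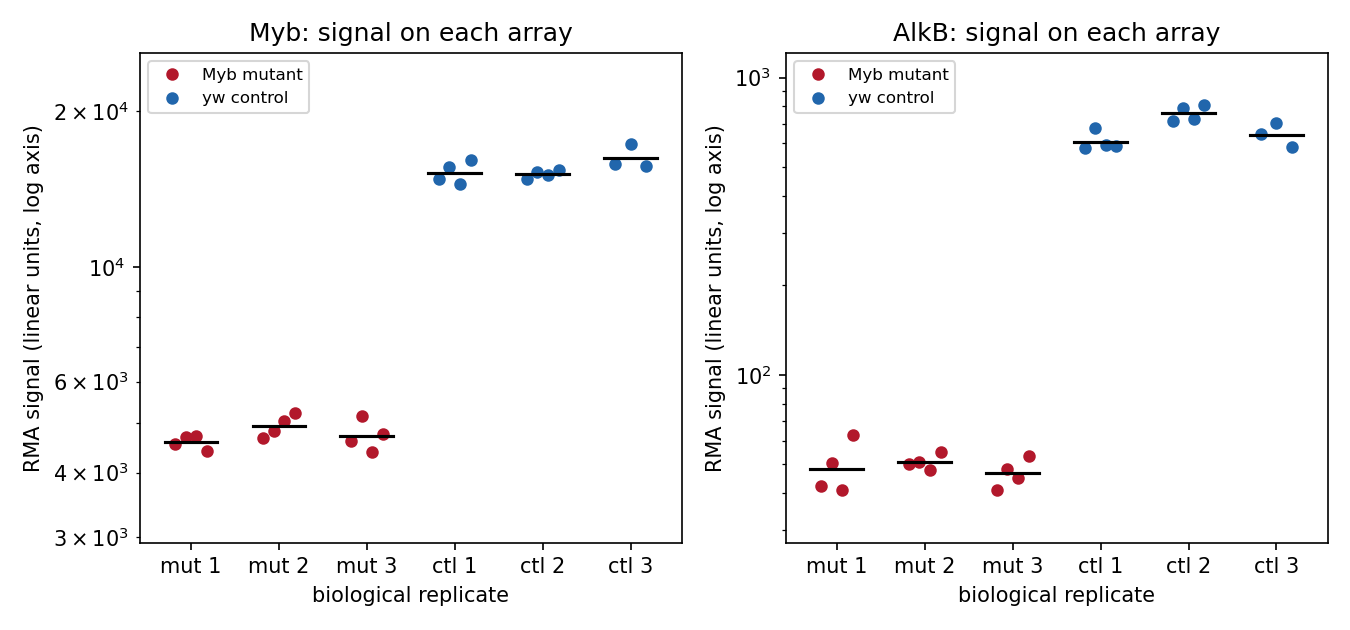
Signal of *Myb* (left) and *AlkB* (right) on each of the 23 arrays, in linear RMA units on a logarithmic axis. Each dot is 1 array, mut 1 to 3 are *Myb* mutant replicates, ctl 1 to 3 are yw control replicates, and each black bar is the geometric mean of 1 replicate. Mutant arrays lie between 4393 and 5209 for *Myb* and between 40.9 and 62.5 for *AlkB*, below all control arrays.

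Both members were thus called lower, as were 0.619% of all varying transcripts (103 of 16637). Replicate means that do not overlap, with the mutant lower, were found in 14.5% of varying transcripts, and in 5.42% every mutant array lay below every control array. Both members belonged to all of these sets. They had been picked because the allele removes *AlkB* and the beginning of *Myb*, and the shares give how common such calls were on these arrays.

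The amount of signal left in the mutant differed between the members. *Myb* kept 30.6% of its control signal (95% interval of the limma estimate 27.5% to 34.0%), which is a 3.27-fold fall. *AlkB* kept 7.29% (95% interval 6.19% to 8.58%), a 13.7-fold fall. The difference between the log2 changes, *AlkB* minus *Myb*, was -2.07 in the signals as deposited, and an exact permutation test of the within-replicate difference gave its smallest possible two-sided p of 0.10. With signals under 100 set to 100 it was -1.03, so its size depended on how the dim mutant signal of *AlkB* was treated.

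For *AlkB* the percentage left depended on how dim signals were treated. The 5th percentile of varying transcripts was 50.3 signal units in the mutant, and the mutant *AlkB* mean of 48.6 lay below it. The lowest value anywhere in the table was 14.158 units, held by 4414 transcripts on every array. *AlkB* lay above it, but such a constant value need not mark the floor of measured signals. With that lowest value subtracted, *AlkB* kept 5.25%, with the 5th percentile of each genotype subtracted it came to -0.28%, and with signals under 100 set to 100 it was 15.0%. No detection flags were analysed here. A signal of *AlkB* RNA above background was therefore not established in the mutant.

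For *Myb* the same corrections made little difference. It kept 30.5% with the lowest value subtracted and 30.3% with the 5th percentile subtracted. Only the 5′ end of the gene is described as missing. The positions of the array's *Myb* probes were not analysed here, so which part of the gene the remaining 4742 units came from is not known, and a probe outside the deleted part would not check the genotype. A transcript of lower amount and a truncated transcript cannot be told apart in these values. The *AlkB* signal, from a gene that the allele removes, went with the genotype label in all 6 replicates.

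**Figure D2:**
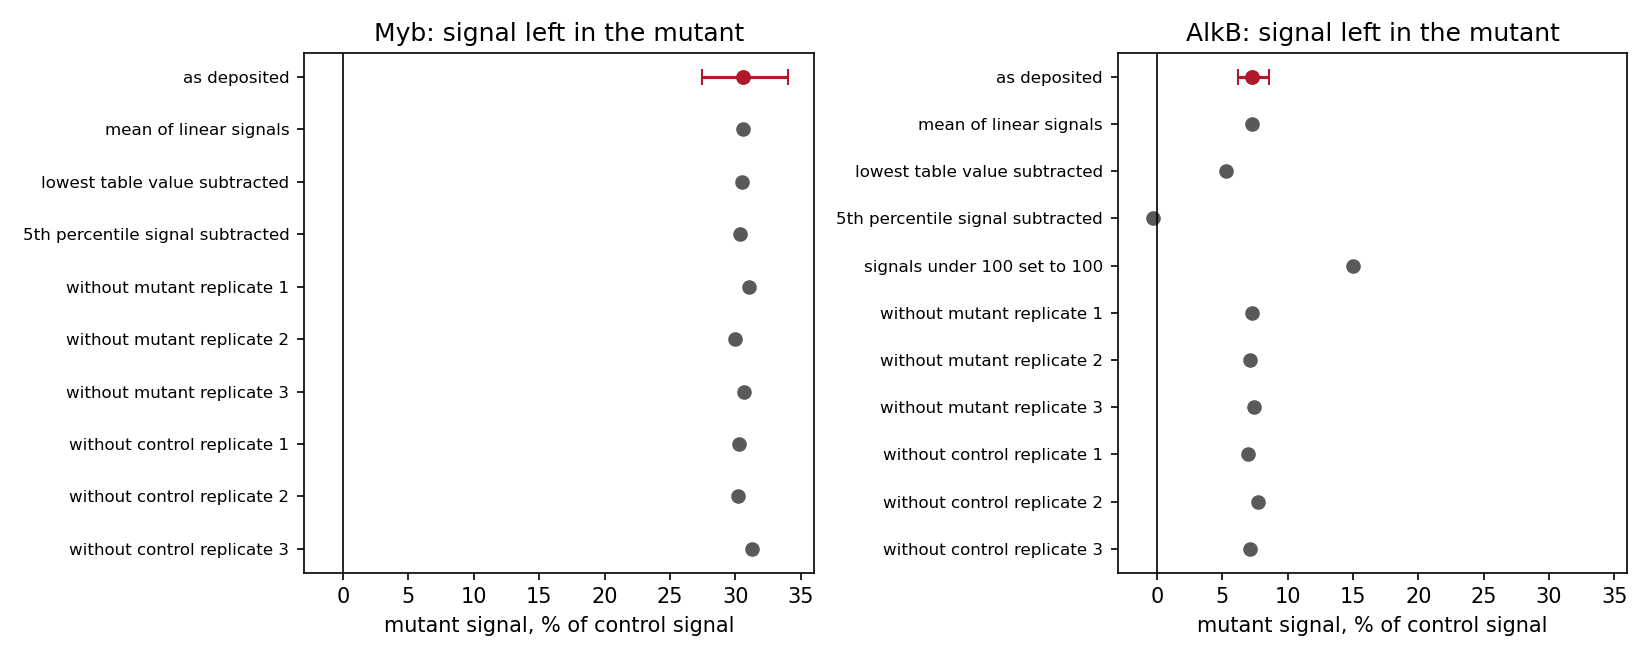
Mutant signal as a percentage of control signal for *Myb* (left) and *AlkB* (right), as deposited (red, with the 95% interval of the limma estimate) and under other ways of forming the ratio (grey). *Myb* stays near 30% in each, whereas *AlkB* lies at -0.28%, 5.25%, 7.29% or 15.0% depending on what is done with dim signals.

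Where each gene stood among the other transcripts also shifted. In the mutant *Myb* ranked 4860th from the brightest of 16637 transcripts (percentile 70.8), against 1163rd in the control (percentile 93.0). The replicate percentiles were tight, 70.3 to 71.5 in the mutant and 92.6 to 93.7 in the control. *Myb* thus remained among the brighter signals of the mutant disc. Probes differ in how strongly they hybridize, so these ranks order signals and not amounts of RNA.

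*AlkB* ranked 16032nd in the mutant, where 605 transcripts were dimmer (percentile 3.64), against 8959th in the control (percentile 46.2). Replicate percentiles ran from 3.31 to 4.36 in the mutant and from 45.6 to 47.1 in the control. Single mutant arrays spread more widely, reaching up to percentile 15.2, while control arrays lay between 45.2 and 47.6. The gene was therefore of middling signal in the control and near the floor in the mutant. When the 4414 transcripts with a single constant value were ranked as well, the percentiles of *AlkB* became 23.8 in the mutant and 57.4 in the control, and those of *Myb* 76.9 and 94.5.

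Ordered by the size of the fall in the deposited signals, *AlkB* was 10th and *Myb* was 103rd of the 16637 transcripts. With signals under 100 set to 100, *AlkB* was 34th and *Myb* 95th of the 13459 transcripts that still varied, so the place of *AlkB* was not fixed by these data. The central 95% of all changes lay between -0.84 and 0.78 on the log2 scale, with a median of -0.01. Transcripts as bright as *AlkB* in the control (within 0.25 on the log2 scale, 429 transcripts) had a median mutant signal of 685 units, and 0 of them were dimmer than *AlkB* in the mutant. Of the 9283 transcripts whose control signal was at least 500, 0 had a lower mutant signal than *AlkB*. This comparison was added after the values were seen.

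Few transcripts as bright as *Myb* fell by as much. Of 851 transcripts within 0.25 of its control log2 signal, 3 fell by more, and they were named after their values were seen. They were *PPO2* (log2 change -6.46), a prophenoloxidase of blood cells, *Pxn* (-3.43), the peroxidasin of the extracellular matrix, and *Blimp-1*, a transcriptional repressor induced by ecdysone (3566 units in the mutant and 14294 in the control, limma adjusted p = 0.0234, not called). Among the 1162 transcripts brighter than *Myb* in the control, *regucalcin*, which encodes a calcium-binding protein, was the 1 with a larger change (-2.71, SE 0.33, limma adjusted p = 0.00488, not called).

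**Figure D3:**
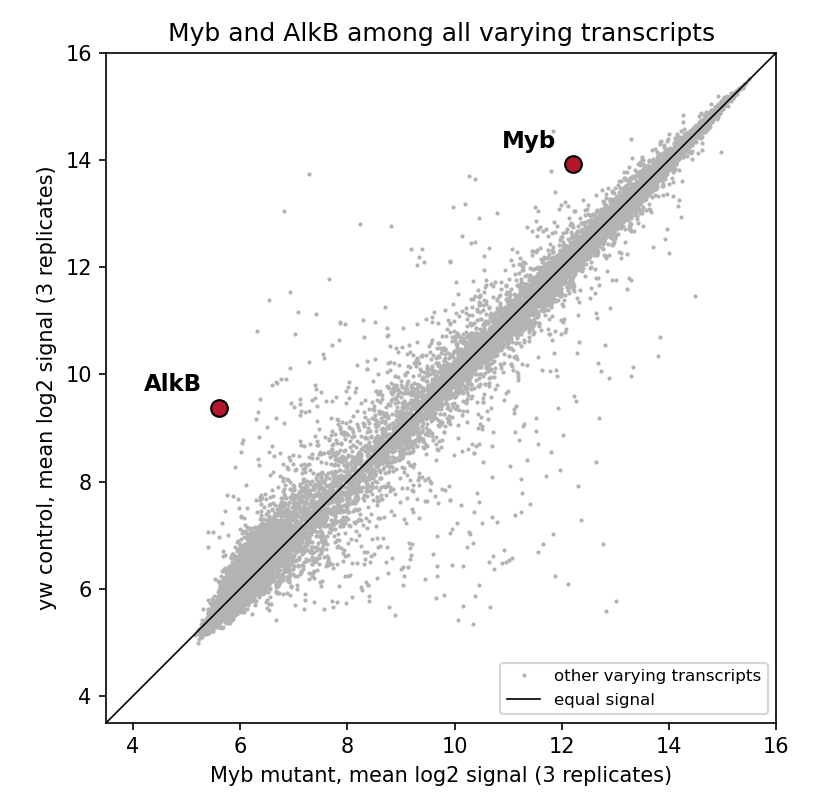
Mean log2 signal of each varying transcript in the *Myb* mutant (horizontal axis) and the yw control (vertical axis), over 3 replicates each, with *Myb* and *AlkB* in red and the line of equal signal in black. *Myb* lies at 12.21 in the mutant and 13.92 in the control, and *AlkB* at 5.60 and 9.38, on the left edge of the cloud.

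Spread between arrays was small for *Myb*. The pooled SD of log2 signal between arrays of 1 replicate was 0.0728 in the mutant and 0.0625 in the control, close to the medians over all varying transcripts (0.0917 in the mutant and 0.0662 in the control). Biological replicate means of *Myb* varied with an SD of 0.0524 among mutant and 0.0567 among control replicates, which put it at percentile 17.8 and 28.6 of all transcripts. The change of -1.71 was thus many times the spread at either level.

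*AlkB* was noisier between arrays in the mutant, where its signal was dim. Its pooled array SD was 0.194 in the mutant and 0.110 in the control. In mutant replicate 1 the coefficient of variation over 4 arrays reached 20.2%, with signals between 40.9 and 62.5. Biological replicate means gave the reverse order, with the mutant SD at 0.0642 and the control SD at 0.165 (percentiles 24.7 and 70.9). Control replicate 2 was the highest of the control replicates, and without it the change of *AlkB* was -3.69.

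Same-numbered replicates gave like changes for both genes. For *Myb* the mutant minus control difference was -1.73, -1.62 and -1.78 in replicates 1, 2 and 3. For *AlkB* it was -3.65, -3.90 and -3.79. The smallest *Myb* change and the largest *AlkB* change thus fell in the same pair, and over the 6 replicates the 2 genes correlated at r = -0.07 once each genotype's mean was removed, a description in which the deviations of each genotype cancel out.

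To see whether genes beside the deleted interval differed too, the 10 RefSeq genes on each side were listed in chromosome order. Of these 20 genes, 3 had an identified transcript, since names were at hand only for transcripts that the study ranked high by p-value. The genes second nearest to the locus, *UBL3* and *Gapdh2*, had none. Nor had *CG46440*, a protein-coding gene that overlaps the *Myb* gene model and comes between *Myb* and *AlkB* in that order. Of the 3, 1 was called higher and 0 were called lower. Among all identified transcripts, 6.55% were called higher and 5.15% lower.

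*CG15914*, adjacent to *Myb*, was the neighbour called higher. It measured 1398, 1397 and 1265 signal units in the mutant replicates, against 367, 429 and 420 in the control replicates. Mutant replicates were all above control replicates, without overlap, as in 14.6% of varying transcripts. That share was not worked out for identified transcripts, which the study ranked high by p-value. On the log2 scale these replicates averaged 10.40 ± 0.08 for the mutant and 8.66 ± 0.12 for the control (SD, n = 3 each). The change was 1.74 (SE 0.09, limma adjusted p = 0.000109). Calls in this direction were made for 0.787% of varying and 6.55% of identified transcripts. With replicates paired the adjusted p was 0.00278 and the call was lost, and it was also lost without mutant replicate 1, mutant replicate 2 or control replicate 3 (adjusted p = 0.00166, 0.00176 and 0.00115). Its gene model overlaps that of *Myb* in RefSeq, and random-primed double-stranded cDNA keeps no strand. Signal from overlapping *Myb* and *CG15914* sequence can therefore not be told apart here.

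On the other side, *Gbeta13F*, which encodes the beta subunit of a heterotrimeric G protein and lies next to *AlkB*, was slightly dimmer in the mutant. It measured 18295, 18935 and 17789 units in the mutant replicates, against 23054, 23188 and 23017 in the control replicates. The genotypes did not overlap, as in 14.5% of varying transcripts with the mutant lower. The change was small at -0.33 (SE 0.06, limma adjusted p = 0.0177) and not called at 0.001. An adjusted p under 0.05 as lower was reached by 2.98% of varying and 24.7% of identified transcripts. *MSBP*, a membrane steroid-binding protein gene 5 places from the locus, had a change of -0.22 (SE 0.07) that missed the call (limma adjusted p = 0.104). Its replicates did not overlap either, at 11350 to 12442 units in the mutant and 13699 to 14474 in the control. Falls of the size seen in *Myb* and *AlkB* were thus not measured in either neighbour on the *AlkB* side. The 17 unidentified neighbours were not analysed here.

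**Figure D4:**
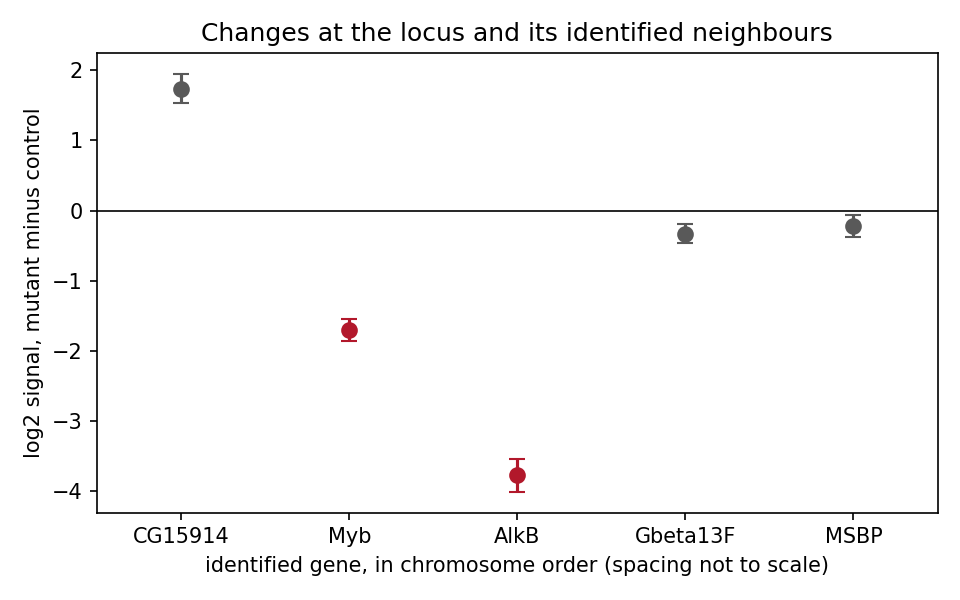
Log2 change, mutant minus control, of *Myb* and *AlkB* (red) and their 3 identified neighbours (grey), in chromosome order with spacing not to scale. Bars are 95% intervals of the limma estimates over 3 replicates per genotype. *CG15914* lies at 1.74, *Myb* at -1.71, *AlkB* at -3.78, *Gbeta13F* at -0.33 and *MSBP* at -0.22.

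Gene lists could be followed only through transcripts that the study had ranked high by p-value, so passing a test was common among them. Of the 1999 identified transcripts, 24.7% passed an adjusted p under 0.05 as lower and 28.4% as higher, and 5.15% were called lower and 6.55% higher at 0.001. The list counts are given with those shares as background, and the lists were chosen with earlier results of these data known. Most partners of Myb in its complex could not be followed. Of 16 listed genes of the complex and its associates, 3 were identified, and *Myb* was the 1 that was called. At a looser adjusted p under 0.05, which 2.98% of varying transcripts passed as lower and 3.43% as higher, *mip130*, a MuvB core subunit, was higher by 0.25 (SE 0.06, limma adjusted p = 0.0457, and 0.0874 with replicates paired), with log2 means of 13.70 ± 0.04 for the mutant and 13.45 ± 0.0017 for the control. *E2f2*, the repressive E2F of the complex, averaged 12.03 ± 0.18 for the mutant and 12.41 ± 0.06 for the control, and its difference of -0.37 (SE 0.10, adjusted p = 0.0915) did not pass.

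Of 12 listed mitotic genes that the literature describes as depending on Myb, 6 were identified, all 6 had a negative change (median -0.40, against -0.01 over all varying transcripts and 0.20 over all identified ones), 5 passed 0.05 as lower and 1 was called at 0.001. The called gene was *aurA*, the Aurora A kinase, at 10.04 ± 0.06 in the mutant and 11.15 ± 0.11 in the control (change -1.11, SE 0.08, limma adjusted p = 0.000415, and 0.00712 with replicates paired). *CycB*, the mitotic cyclin B, changed by -0.40, *pav*, a kinesin of cytokinesis, by -0.41, *fzy*, an activator of the anaphase-promoting complex, by -0.44, and *Klp61F*, a spindle kinesin, by -0.35. With replicates paired, *fzy* (limma adjusted p = 0.0721) and *Klp61F* (0.0572) no longer passed 0.05, which left 3 of the 6 lower. *mad2*, a spindle checkpoint gene, had a change of -0.31 (adjusted p = 0.0602) and did not pass.

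No relative of *AlkB* was called with it. Of the 5 family members listed, all 5 were identified, and *AlkB* was the 1 called. The other 4 had a median change of 0.39. *CG17807* was higher (11.65 ± 0.05 in the mutant and 11.32 ± 0.01 in the control, change 0.33, SE 0.06, limma adjusted p = 0.0197, and 0.0558 with replicates paired), the 1 of these 4 past 0.05 with the signal minimum. *CG4036* had a change of 0.83 (SE 0.15, adjusted p = 0.0223) but stayed under the signal minimum, at 374 units in the mutant and 210 in the control. *CG14130* (0.46, adjusted p = 0.0718) and *CG6144* (-0.18, adjusted p = 0.136) did not pass.

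The other genes that repair DNA by direct reversal moved in both directions. *agt*, which takes alkyl groups off guanine in DNA, was higher at 11.98 ± 0.08 in the mutant and 11.47 ± 0.03 in the control (change 0.52, SE 0.07, limma adjusted p = 0.00619). The photolyase genes *phr* and *phr6-4*, whose products use light to reverse ultraviolet damage, were lower, with changes of -0.47 (adjusted p = 0.0392) and -0.46 (adjusted p = 0.0123). With *AlkB*, 3 of the 4 genes passed 0.05 as lower and 1 as higher, and *AlkB* alone was called at 0.001. These 4 genes were identified through the same ranking by p-value, in which 53.1% of transcripts passed 0.05 in either direction.

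The transcripts whose pattern over the 6 replicates was most like that of *Myb* were *CG5399* (r = 0.9992), *tacc* (FBtr0089952, r = 0.9987), *PIG-B* (r = 0.9985), *CG31751* (r = 0.9981) and *CG9372* (r = 0.9981). Their own changes were unequal, from -0.26 for *PIG-B*, an enzyme of GPI anchor synthesis, to -2.86 for *CG5399*. *tacc*, a centrosomal protein gene, changed by -0.66. Such values are easily reached when the genotypes differ, as 356 of 9753 bright transcripts had r over 0.95 with *Myb*. *AlkB* itself was 12th in this order (r = 0.9970).

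For *AlkB* the 5 most alike were *PPO1* (r = 0.9998), *CG5397* (r = 0.9996), *tacc* (FBtr0089954, r = 0.9992), *NtR* (r = 0.9982) and *CG11125* (r = 0.9980). All 5 were called lower, a call made for 0.619% of varying and 5.15% of identified transcripts. They were picked for likeness to *AlkB*, itself called lower, over the same 6 means, so their calls are no separate finding. With replicates paired 3 of them kept the call, while *tacc* (limma adjusted p = 0.00627) and *NtR* (0.00188) did not. *PPO1*, a prophenoloxidase gene of crystal cells, measured 113 units in mutant discs and 8467 in control discs (log2 change -6.23). Of the 9753 transcripts, 371 had r over 0.95 with *AlkB*, and *Myb* was 15th. When the 23 arrays were used in place of the 6 means, 2 of the 5 remained among the top 5 for *AlkB*, and 1 of the 5 did for *Myb*.

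Markers of other cell types that a dissected disc can carry also differed between the genotypes. Of 6 hemocyte (blood cell) markers, 5 were identified and all 5 were called lower (3 of them with replicates paired), with a median change of -4.12. Calls in that direction were made for 0.619% of varying and 5.15% of identified transcripts. Their summed signal ran from 2234 to 2712 units in the mutant replicates and from 39095 to 49030 in the control replicates. They were *Hml* (-4.12), *NimC1* (-2.94), *Pxn* (-3.43), *PPO1* (-6.23) and *PPO2* (-6.46), and none was at the lowest value of the table. In the control, replicate 1 had the lowest and replicate 2 the highest sum, the order also seen for *AlkB*, while in the mutant replicate 1 had the highest sum and replicate 2, where *AlkB* was highest, the lowest. Of these 5 markers, only the 2 prophenoloxidase genes followed the order of *AlkB* in both genotypes. The mutant order of *AlkB* was not resolved, as its replicate means had an SD of 0.0642 against a pooled array SD of 0.194. A match or mismatch with that order is therefore only described. In mutant replicates 1 to 3, *Hml* measured 193, 173 and 247 units, *NimC1* 750, 549 and 736, and *Pxn* 1505, 1153 and 1083. None of these followed the mutant order of *AlkB*. In the control *Hml* and *NimC1* followed its order and *Pxn* did not. *PPO1* measured 114, 117 and 108 units in mutant replicates 1 to 3, against 6949, 10149 and 8607 in the control replicates. *PPO2* measured 150.1, 242 and 105 units in the mutant and 11467, 16803 and 13442 in the control. With each genotype's mean removed, *PPO1* and *AlkB* correlated at r = 0.93 over the 6 replicates, a description added after the values were seen. *PPO1* was the most like *AlkB* of 9753 bright transcripts over these same 6 means. A high r here therefore follows in part from that choice and is not separate evidence of a link. The part of these cells in the signals of *Myb* and *AlkB* was not tested, and in bulk discs fewer cells of a type and less RNA per cell cannot be told apart.

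Of 4 fat body markers, 3 were identified, and the storage protein genes *Lsp1beta* (3.01) and *Lsp2* (3.15) and the fat body gene *Fbp2* (2.56) were higher at 0.05 and not called at 0.001. With replicates paired *Fbp2* no longer passed 0.05 (limma adjusted p = 0.0571). Their sum ran from 29577 to 56368 units in the mutant and from 3060 to 8228 in the control. Passes at 0.05 as higher made up 3.43% of varying and 28.4% of identified transcripts. Among markers of the myoblasts attached to the disc, *zfh1* (-0.84) and *Him* (-0.86) were the 2 identified of 4 and were lower at 0.05. Their sums were 3284 to 4727 for mutant and 6742 to 8023 for control replicates. Passes at 0.05 as lower made up 2.98% of varying and 24.7% of identified transcripts. The tracheal FGF receptor gene *btl*, 1 of 2 tracheal markers, was called lower (-1.32), at 205 to 268 units in the mutant and 559 to 580 in the control. Such calls were made for 0.619% of varying and 5.15% of identified transcripts. *Mhc*, 1 of 4 muscle markers, had a change of 0.59 (limma adjusted p = 0.0564), at 110 to 140 units in the mutant and 68.0 to 88.4 in the control. Of 22 wing disc markers, *eyg*, a transcription factor gene of the thoracic part of the disc, was the 1 identified, at 7977 units in the mutant and 9486 in the control (change -0.25, adjusted p = 0.105). The part of these cell types in the results for *Myb* and *AlkB* was not tested either.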

How the data were processed

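The authors labelled random-primed double-stranded cDNA with Cy3, hybridized it to a one-color NimbleGen expression array, and processed all arrays with robust multichip analysis (RMA) in ArrayStar, which corrects background, normalizes by quantiles and summarizes probes per transcript by median polish. The table that they deposited gives linear signal intensity for 21051 transcripts on 23 arrays. Of these transcripts, 4414 (21.0%) held the value 14.158 on every array and were left out, which left 16637. It had 0 further sample columns. Array medians lay between 996 and 1060 units. Log2 signals of paired arrays correlated at a median of 0.999 within a biological replicate, 0.994 within a genotype and 0.984 across genotypes. Precision is limited by the 3 biological replicates of each genotype, since arrays of 1 replicate are not independent. Slide and scan were not analysed here.

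Genotype and replicate numbers were taken from the sample titles. Signals were converted to log2, arrays of 1 biological replicate were averaged, and the 6 means were compared with lmFit and eBayes (limma 3.58.1, statmod 1.5.0, R 4.3.3), by two-sided tests whose p-values were adjusted by Benjamini-Hochberg over all 16637 transcripts. Changes are mutant minus control. A transcript was called at an adjusted p under 0.001 with a signal of at least 500 in at least 1 replicate. The script was tested on simulated data. Alternatives were other thresholds and tests, other normalizations, dim-signal rules and each replicate left out.

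Same-numbered mutant and control replicates deviated together from their genotype means (r = 0.20, 0.18 and 0.28 over all transcripts), so fits with the replicate number as a block are given where a call at 0.001 or a pass at 0.05 is lost. The labels state no source of such a pairing.

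Names came from a supplementary sheet of the study, used for identity alone and held in part (1999 transcripts, 12.0% of those tested, among them all 234 called), so counts over gene lists are over identified transcripts. Gene order came from RefSeq (Release 6), with no coordinates, since the array's build is not stated. Named were the 2 members, their nearest and any called neighbours, list genes past 0.05, all identified relatives and complex partners, and the 5 transcripts most correlated with each member. The members and gene lists were chosen with earlier results of these data known.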

Additional observations from a re-analysis of the deposited data

Results flagged for a closer look

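One result was flagged, among 10 sets of 4 arrays examined for *Myb* and *AlkB*. In control replicate 1, *AlkB* read 676.3 signal units on the farthest array, and the gap to the next array took up 0.839 of the range over the 4 arrays, past Dixon's 95% critical value for 4 arrays. Chance flags about 1 set in 20, and this value lay within the range of the other control arrays.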

How the results depend on the processing

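*Myb* and *AlkB* were lower under every alternative run, and no change reversed. Their calls at an adjusted p under 0.001 were kept in all of them except that the methods' t-test on the 6 means, after adjustment, gave -1.71 (adjusted p = 0.00135) and -3.78 (adjusted p = 0.00146), and that the replicate block gave *Myb* -1.71 (adjusted p = 0.00171), while *AlkB* kept its call there. Leaving out 1 replicate gave changes of -1.74 to -1.68 for *Myb* and -3.84 to -3.69 for *AlkB*, percentages left of 30.0 to 31.3 and 6.96 to 7.77, and differences between the changes of -2.13 to -1.96. With signals under 100 set to 100, *AlkB* changed by -2.74 and that difference was -1.03 (a setting added for the difference after seeing the data). Its percentage left was 5.25, -0.28 and 15.0 with the lowest value subtracted, the 5th percentile subtracted and the dim signals raised.

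The number of transcripts called, 234, was 1066 at an adjusted p under 0.05, 61 with the replicate block, 1184 with all arrays and a random block, 17 and 490 by the methods' t-test on the 6 means (adjusted and unadjusted), 2754 and 3313 by that test on 23 arrays, and 70 to 317 with 1 replicate left out (70 and 71 without mutant replicates 1 and 2, 121 without mutant replicate 3, 106 and 100 without control replicates 1 and 3). The replicate block also ended the calls of *CG15914*, *NimC1*, *Pxn*, *aurA* and *btl*, and the passes at 0.05 of *mip130*, *CG17807*, *fzy*, *Klp61F* and *Fbp2*. Correlations with genotype means removed were added after seeing the data. The depth of *AlkB* in the mutant is limited by dim signal, since its mutant mean of 48.6 units lay below the 5th percentile of 50.3. Detection flags were not analysed here.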
